A study of Mus musculus with 15 samples.

Results

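Expression of 5 genes of the complement system, Serping1, C1ra, C4b, C3 and Cfb, was followed across 5 sorted mouse cell populations. The members were named by gene symbol, and all 5 were found among the 10222 symbols with a value. RNA was sequenced from 15 libraries, 3 of each population, all from C57BL/6 mice carrying an Il33-citrine reporter, in which a fluorescent protein marks cells that use the gene of the alarmin IL-33. The populations were Il33+ WAT-MSC and Il33- WAT-MSC, which are reporter-positive and reporter-negative mesenchymal stromal cells of mesenteric white adipose tissue (WAT), lung Il33+ MSC, CD31+ endothelial cells of WAT, and EpCAM+ epithelial cells of lung. WAT-MSC were gated in the study as CD45- EpCAM- CD31- cells that carry PDGFRα and CD34. The gate of the lung MSC is not detailed in the labels, which name no treatment and do not state age, how many mice went into a library, or whether 1 or both Il33 alleles carried the reporter. Levels are in RPKM, reads per kilobase of transcript scaled to the mapped reads of the library and summed over the transcripts of a symbol, so they are per length and can be set side by side between genes.

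The labels were checked against marker genes. Il33 itself was at 38.7, 78.5 and 41.9 RPKM in Il33+ WAT-MSC, against 6.76, 4.31 and 4.49 in Il33- WAT-MSC. The summed level of 15 stromal markers was 5451 to 10984 RPKM in the 9 MSC libraries, that of 12 endothelial markers 719 to 860 in endothelial cells and at most 110 elsewhere, and that of 10 lung epithelial markers 162165 to 209681 in epithelial cells and at most 551 elsewhere. The endothelial libraries nevertheless held stromal markers at a sum of 2479, 2920 and 5249 RPKM in replicates 1, 2 and 3. A leukocyte list, of which 10 of 13 genes had a value, summed to 13.8 to 96.0 RPKM in WAT-MSC, 210 to 223 in lung Il33+ MSC, 260 to 474 in endothelial cells and 887 to 1763 in epithelial cells. Outside WAT-MSC its largest entries were Lyz2 and Cd74. Their means were 127 and 47.05 RPKM in lung Il33+ MSC, 47.3 and 240 in endothelial cells, and 1006 and 261 in epithelial cells. Library depth was 42711843 to 60773158 alignments, and the counts behind single values are unknown, so the errors given are between libraries. These are bulk samples, in which fewer cells of a type and less RNA per cell cannot be told apart.

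Complement is a cascade of plasma and tissue proteins that coats targets for uptake, recruits leukocytes and can pierce membranes. In the classical pathway C1q carries the proteases C1r and C1s, C1r activates C1s, and C1s cleaves C4 and then C2, and the resulting enzyme cleaves C3. The alternative pathway needs no C1, and there factor B, the product of Cfb, joins fragments of C3 to form an enzyme that cleaves more C3. C1 inhibitor, the product of Serping1, is a serpin that traps C1r and C1s and also restrains the contact system of kinin formation. Liver supplies most circulating complement, and fibroblasts and other stromal cells are known to make many of its components locally.

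All 5 members were at their highest mean level in lung Il33+ MSC. Serping1 and C3 were among the most abundant transcripts of the stroma, and C1ra, C4b and Cfb lay well below them. Epithelial cells had the lowest mean of every member. Together the members held 1.97 to 2.26% of the RPKM summed over all genes in lung Il33+ MSC, 1.39 to 1.50% in Il33+ WAT-MSC and 0.952 to 1.16% in Il33- WAT-MSC. The share was 0.536 to 1.03% in endothelial cells and 0.0396 to 0.0502% in epithelial cells, where the club cell transcript Scgb1a1 alone took 57.7 to 62.9% of the sum.

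**Figure D1:**
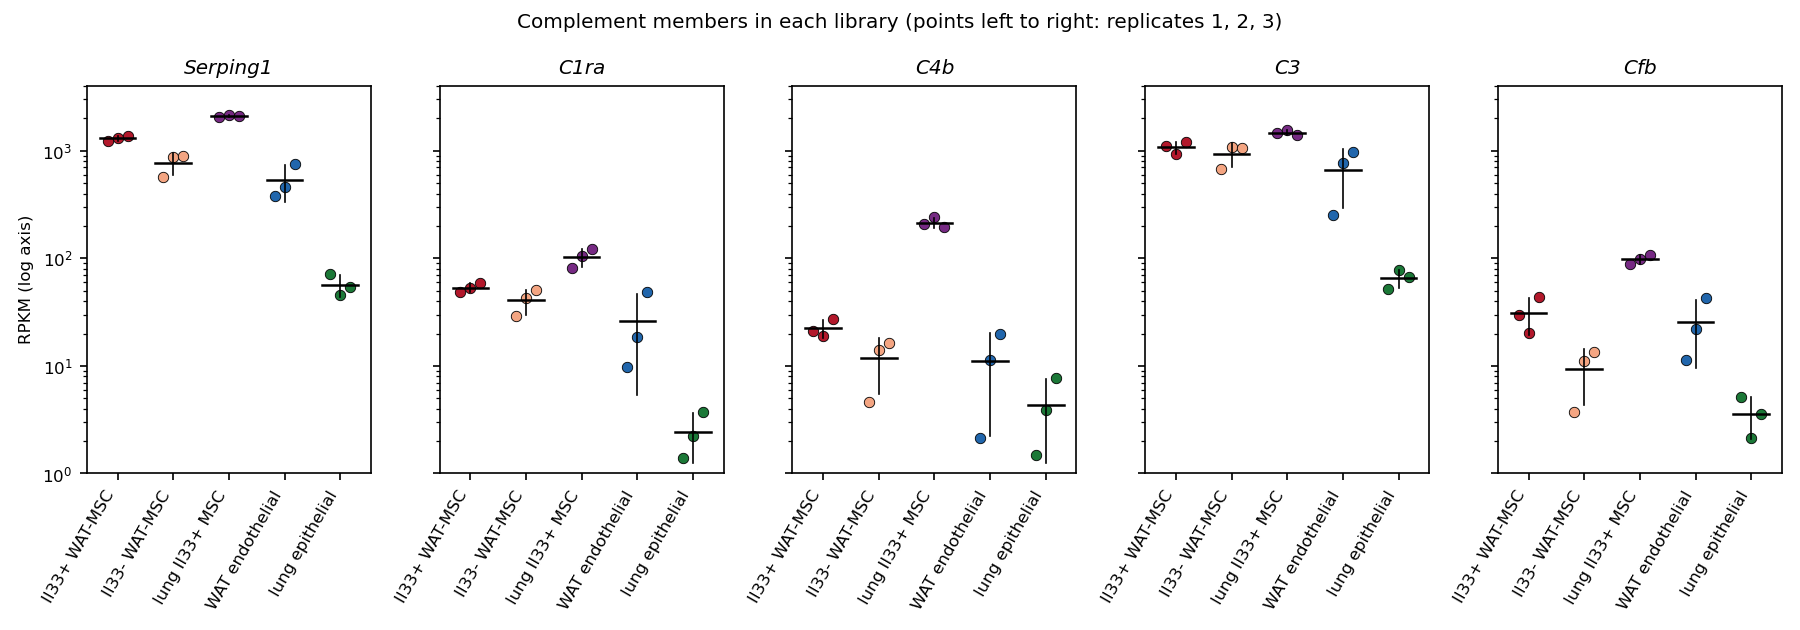
RPKM of the 5 members in each of the 15 libraries on a log axis, 1 panel per gene, with points for replicates 1, 2 and 3, a horizontal bar at the mean and a vertical line for the SD (n = 3), drawn no lower than the axis limit of 1. The lung Il33+ MSC points lie highest in every panel, and the endothelial points spread most widely, from 2.13 to 20.0 RPKM for C4b.

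Serping1 (chr2:84765360-84775444, minus strand, in the mm10 build) was the most abundant member by mean in the Il33+ MSC of both tissues, and C3 was in the other 3 populations. It was at 2053, 2139 and 2090.5 RPKM in lung Il33+ MSC, a mean of 2094 ± 43.2 (SD, n = 3) that ranked 11 of 10222 symbols. In Il33+ WAT-MSC it was at 1235, 1306 and 1368 RPKM and ranked 10, and in Il33- WAT-MSC at 568, 874 and 886. Each library of lung Il33+ MSC lay above each library of Il33+ WAT-MSC, and each of these above each of Il33- WAT-MSC. In endothelial cells Serping1 was at 379.7, 456 and 757 RPKM, overlapping the range of Il33- WAT-MSC, and in epithelial cells at 71.1, 45.6 and 53.8. Of the 4 steps between neighbours in this order, only that from endothelial to epithelial cells passed the test, with means 9.35-fold apart (log2 difference 3.16, limma with Benjamini-Hochberg adjustment, adjusted p = 0.000307). The step from Il33- WAT-MSC to endothelial cells was a log2 difference of 0.58 (adjusted p = 0.488, limma).

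C1ra (chr6:124512621-124523440, plus strand) encodes the C1r protease. It was at 81.8, 105 and 122 RPKM in lung Il33+ MSC, and at 48.9, 53.1 and 58.7 in Il33+ WAT-MSC. The values in Il33- WAT-MSC were 29.2, 42.5 and 50.25 RPKM, and those in endothelial cells 9.87, 18.8 and 49.0. The lung libraries stood above all others, the WAT-MSC populations overlapped, and 1 endothelial library, replicate 3, reached the level of Il33+ WAT-MSC. In epithelial cells C1ra was at 1.39, 2.21 and 3.73 RPKM. The steps from lung Il33+ MSC to Il33+ WAT-MSC (log2 difference 0.92, adjusted p = 0.0219, limma) and from endothelial to epithelial cells (log2 difference 2.74, adjusted p = 0.0081, limma) passed the test, and the 2 steps between did not.

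The start region of C1ra is shown because this gene and C3 are the members with a RefSeq promoter window, 2 of 5; C4b, Cfb and Serping1 had no entry. The window on GRCm38.p6, the same assembly as mm10, runs from 250 bases before to 50 bases after the annotated start, at chr6:124512371-124512670 on the plus strand. Capitals mark matches to motifs of factors used in inflammatory gene control, searched on both strands: the C/EBP motif TTGCNNAA and the gamma-activated site TTCNNNGAA.
C1ra: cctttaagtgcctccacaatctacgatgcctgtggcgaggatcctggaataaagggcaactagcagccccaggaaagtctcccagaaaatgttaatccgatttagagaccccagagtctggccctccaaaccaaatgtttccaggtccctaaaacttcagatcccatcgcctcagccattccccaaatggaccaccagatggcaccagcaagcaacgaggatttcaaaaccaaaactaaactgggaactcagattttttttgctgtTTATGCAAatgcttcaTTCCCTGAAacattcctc
The C/EBP match lies at bases 17 to 24 and the gamma-activated site at bases 33 to 41, counted from 1 at the start. Of 32851 windows of this length, 10.8% held the C/EBP motif and 8.30% the gamma-activated site, and neither match is evidence that a factor binds there.

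C4b (chr17:34728139-34743902, minus strand) encodes complement C4, the substrate of C1s whose fragment anchors the classical C3-cleaving enzyme. In lung Il33+ MSC it was at 207, 240.5 and 197 RPKM, against 20.95, 19.0 and 27.2 in Il33+ WAT-MSC. The mean in lung Il33+ MSC, 215 ± 23.0 RPKM (SD, n = 3), was 9.59 times the next highest mean, and it ranked 109 of 10222 symbols there against 1113 in Il33+ WAT-MSC. The remaining populations ran together. C4b was at 4.65, 14.2 and 16.5 RPKM in Il33- WAT-MSC, at 2.13, 11.4 and 20.0 in endothelial cells and at 1.49, 3.93 and 7.70 in epithelial cells. None of the 3 steps below lung Il33+ MSC in this order passed the test, with adjusted p values of 0.335, 0.873 and 0.394 by limma.

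C3 (chr17:57203967-57228136, minus strand) encodes the protein on which all complement pathways converge. Its level varied least among the stromal populations, at 1462, 1574 and 1399 RPKM in lung Il33+ MSC, 1105, 931 and 1199 in Il33+ WAT-MSC, and 670.4, 1084 and 1065 in Il33- WAT-MSC. The mean ranked 15, 11 and 13 of 10222 symbols in these populations. Endothelial cells held 253, 764 and 969 RPKM, the last 2 inside the range of WAT-MSC and the first far below it. Epithelial cells held 52.2, 77.3 and 67.25 RPKM, a level that still ranked 221 in that population. Only the step from endothelial to epithelial cells, with means 10.1-fold apart, passed the test (log2 difference 3.12, adjusted p = 0.00205, limma).

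The window around the start of C3, at chr17:57228087-57228386 on the minus strand, is given for comparison with that of C1ra, since these members differ in level by more than an order of magnitude in stroma. Capitals mark matches to the NF-kappaB motif, searched as GGGA and CC with any 4 bases between them, and to the C/EBP motif TTGCNNAA, both on either strand.
C3: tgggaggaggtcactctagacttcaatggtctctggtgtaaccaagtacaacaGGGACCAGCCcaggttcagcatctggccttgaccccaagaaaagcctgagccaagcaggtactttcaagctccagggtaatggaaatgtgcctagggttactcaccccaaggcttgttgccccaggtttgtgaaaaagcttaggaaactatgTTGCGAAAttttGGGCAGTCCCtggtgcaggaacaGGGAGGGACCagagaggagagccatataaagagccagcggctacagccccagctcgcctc
The 3 NF-kappaB matches lie from -197 to -188, from -33 to -24 on the opposite strand, and from -10 to -1 relative to the start, and the C/EBP match from -45 to -38. Of the 32851 windows, 20.7% held this NF-kappaB motif. Neither window held the interferon-stimulated response element, searched as GAAA, any 2 bases and GAAA again, which 3.44% of windows held, and this says only that those letters are not there.

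Cfb (chr17:34856374-34862514, minus strand) encodes factor B. It was at 88.0, 99.45 and 108 RPKM in lung Il33+ MSC and at 29.8, 20.35 and 43.9 in Il33+ WAT-MSC. Here the order of the populations differed from that of the other members, because endothelial cells, at 11.5, 22.1 and 42.5 RPKM, came before Il33- WAT-MSC, at 3.72, 11 and 13.4. These last 2 populations overlapped, and the step between them was a log2 difference of 1.31 (adjusted p = 0.269, limma). Epithelial cells held 5.13, 2.14 and 3.56 RPKM. Only the step from lung Il33+ MSC to Il33+ WAT-MSC passed the test (log2 difference 1.68, adjusted p = 0.00352, limma). Cfb was the sum of 2 transcripts, which held 48.1 to 61.3% and 38.7 to 51.9% of it in the 15 libraries.

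Some of these levels rest on sequence that is not particular to the gene. Of the stretches of 50 bases in the annotated C1ra transcript, 50.8% also occurred in C1rb or Gm18840, and of those of C4b, 35.2% occurred in the near-identical C4a. Of those of the 2 Cfb transcripts, 81.8% and 80.1% also occurred in Gm20547, a gene model on the same strand that spans Cfb and C2. C3 and Serping1 shared none. How reads that fit several genes were assigned is not given in the sources used here, C1rb and C4a were not analysed here, and the levels of C1ra, C4b and Cfb are uncertain to that extent. On chromosome 17 Cfb lies 87 bases from C2 and 112471 bases from C4b, and on chromosome 6 C1ra lies 6903 bases from C1s1, so several members have another complement gene as a neighbour.

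Across the 15 libraries the log2 levels of the members moved together, with Pearson correlations of 0.724 to 0.975 (median 0.838) for the 10 pairs. With the mean of each population removed the correlations were 0.572 to 0.910 (median 0.693). The points share library, depth and stromal content, and no p is given. The genes whose log2 levels followed each member most closely over the 15 libraries, of 9981 compared, were Col1a2, Pcolce and Igfbp7 for Serping1 (r = 0.992, 0.990 and 0.989), and Col1a1, Loxl1 and Adamts2 for C1ra (r = 0.988, 0.988 and 0.986). For C3 they were Ecm1, Entpd2 and Cdon (r = 0.990, 0.990 and 0.987). The nearest genes to C4b were Myh10, Cpz and Serpina3n (r = 0.968, 0.958 and 0.948), and those to Cfb were Sparcl1, Wnt9a and Bace2 (r = 0.958, 0.954 and 0.944). With the mean of each population removed, 0 of the 3 nearest genes of each member were shared with these lists. The genes named above still had correlations with their member of 0.606 (Bace2 with Cfb) to 0.961 (Loxl1 with C1ra) after that removal. Serpina3n followed the lung level of C4b, at a mean of 669 RPKM in lung Il33+ MSC and 112 in Il33+ WAT-MSC.

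The comparison of lung Il33+ MSC with Il33+ WAT-MSC asks how stromal cells of the same reporter state differ between tissues. C4b, Cfb and C1ra were lower in WAT by limma on log2(RPKM + 1), a scale that understates changes of low genes. The log2 fold changes of Il33+ WAT-MSC over lung Il33+ MSC were -3.22 for C4b (SE 0.20, adjusted p = 1.69e-05), -1.68 for Cfb (SE 0.26, adjusted p = 0.00352) and -0.92 for C1ra (SE 0.20, adjusted p = 0.0219), by limma. In all, 3 of 5 members passed, all lower in WAT, where 6.00% of the 8554 genes tested passed and 3.50% were lower. Serping1 (log2 fold change -0.69, SE 0.20, adjusted p = 0.0912, limma) and C3 (-0.46, SE 0.21, adjusted p = 0.291, limma) did not pass. Serping1 passed under median-ratio scaling (adjusted p = 0.0466) and with the filter raised to 5 RPKM (0.0438), by limma, and quantile normalization brought its log2 fold change to -0.025 and that of C3 to -0.020. In all 5 members the libraries of these populations did not overlap, with lung higher, and 23.1% of all genes tested did not overlap in either direction. The median log2 fold change of the members was -0.92, against 0.03 over all genes.

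The C1ra call was lost without Il33+ WAT-MSC replicate 1 (adjusted p = 0.0872), lung Il33+ MSC replicate 2 (0.133) or replicate 3 (0.0866), by limma, and those of C1ra and Cfb were lost when all 15 libraries were fitted together (0.411 and 0.0533). The C4b call held in all alternatives tried. Within the sequencing lanes the C4b differences were -3.31 and -2.95, and those of the other members -0.53 to -1.80 in lane 1 and -0.31 to -1.22 in lane 2. The leukocyte list was at 13.8 to 32.7 RPKM in Il33+ WAT-MSC and 210 to 223 in lung Il33+ MSC with none of its genes with a value at 0 throughout. In lung Il33+ MSC its largest entries were Lyz2 and Cd74, at means of 127 and 47.05 RPKM. Its other genes with a value had means of 1.08 (Cd52) to 12.4 (Cd68) RPKM there. The part of the list in these differences was not tested.

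Among the other complement genes listed for the pathway, 20 of 50 had a value and 14 could be tested here. Of the 11 that reached 1 RPKM in a library of both populations, 2 passed, where 6.00% of all genes tested did. Lower in WAT, as C4b was, was C2, the partner of C4 in the classical enzyme, at 20.8, 17.9 and 30.9 RPKM against 37.15, 46.55 and 55.15 (log2 fold change -0.99, adjusted p = 0.0411, limma). The C2 call was lost under 9 of 15 alternatives, among them the omission of any lung library. Higher in WAT was Cd55, which dissolves C3-cleaving enzymes on the cell surface (134 ± 40.8 against 41.2 ± 10.1 RPKM, SD, n = 3; log2 fold change 1.66, adjusted p = 0.0035, limma). The other 3, Vtn, C5ar1 and Itgb2, stayed below 1 RPKM in every library of 1 population and met the filter on low levels only through the population where they were high, so their direction was fixed and no test is given. Vtn, vitronectin, which blocks assembly of the membrane pore, was at 3.86, 2.59 and 2.59 RPKM in Il33+ WAT-MSC and at most 0.13 in lung Il33+ MSC. C5ar1, the receptor for C5a, was at 5.04, 3.63 and 1.90 RPKM in lung Il33+ MSC and at most 0.18 in Il33+ WAT-MSC. Itgb2, a chain of the complement receptors on leukocytes, was at 5.92, 5.78 and 6.75 RPKM in lung Il33+ MSC and at most 0.20 in Il33+ WAT-MSC. C1s1, the protease partner of C1ra, was at 308 ± 38.2 RPKM in lung and 267 ± 18.4 in WAT (SD, n = 3), with a log2 fold change of -0.20 and a 95% interval of -0.61 to 0.21.

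**Figure D2:**
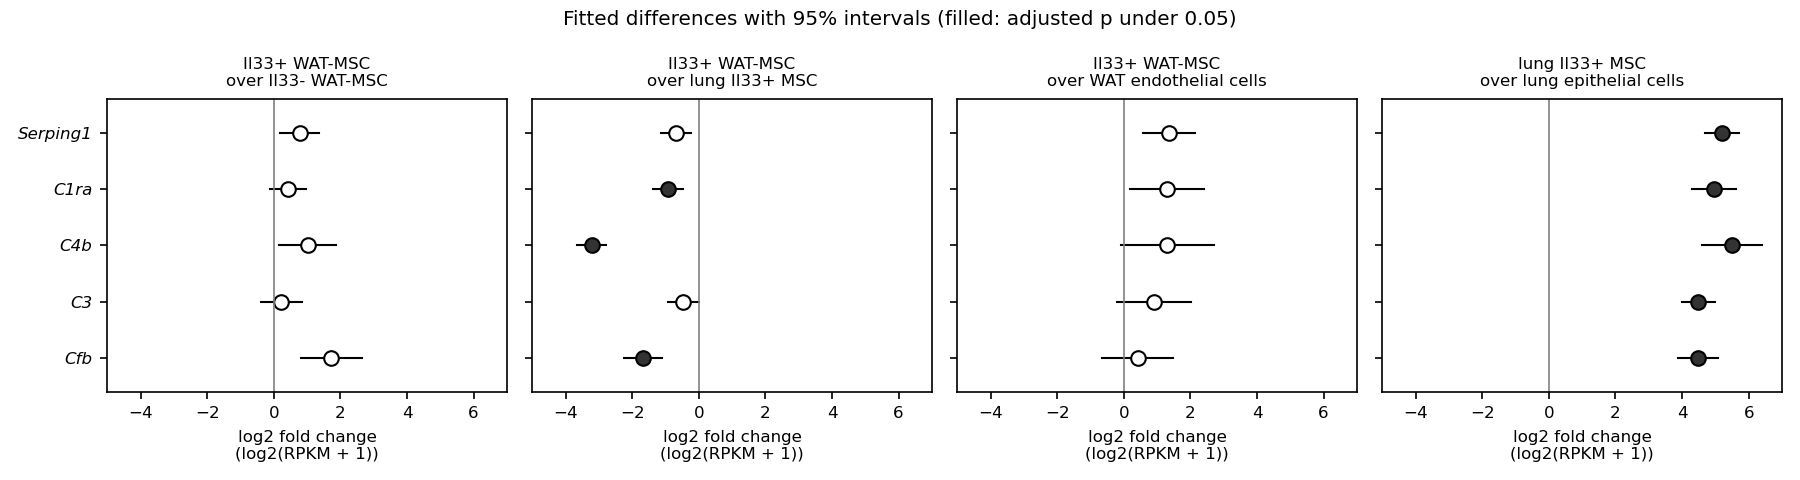
Log2 fold changes of the 5 members on the log2(RPKM + 1) scale with 95% intervals from limma in 4 comparisons of 3 against 3 libraries, filled where the adjusted p was under 0.05. C4b stands at -3.22 in Il33+ WAT-MSC over lung Il33+ MSC, no member is filled in the comparisons within WAT, and all are filled, between 4.48 and 5.50, in lung Il33+ MSC over epithelial cells.

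Il33+ and Il33- WAT-MSC share tissue and gate and differ by the reporter. Of the 5 members, 0 passed by limma, where 1.57% of the 8448 genes tested did, and 3 of 5 had an unadjusted p under 0.05. The libraries of C4b, Cfb and Serping1 did not overlap, being higher in Il33+ cells, where 17.5% of all genes did not overlap in either direction. Cfb had the largest difference, with 31.3 ± 11.8 against 9.38 ± 5.05 RPKM (SD, n = 3; log2 fold change 1.72, SE 0.42, adjusted p = 0.0774, limma). The log2 fold changes were 1.01 for C4b (SE 0.39, adjusted p = 0.335), 0.77 for Serping1 (SE 0.27, adjusted p = 0.258), 0.42 for C1ra (SE 0.25, adjusted p = 0.576) and 0.22 for C3 (SE 0.28, adjusted p = 0.831), by limma. The 95% interval for C3, which had the smallest difference, ran from -0.38 to 0.83. The median of the members was 0.77, against -0.01 over all genes.

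The Cfb difference passed with the replicate number as a block (adjusted p = 0.0148, limma), and under median-ratio scaling it and Serping1 passed (0.0296 and 0.0366). The sign of C3 turned, to a log2 fold change of -0.0025, without Il33- WAT-MSC replicate 1, which was the lowest of its population for every member, and leaving it out moved that of Cfb to 1.23 and that of C4b to 0.51. Within lanes 1 and 2 the differences were 1.77 and 1.64 for Cfb, 1.18 and 0.69 for C4b, and 0.85 and 0.63 for Serping1. Mesothelial markers, 9 of 10 with a value, summed to 58.0 to 154 RPKM in Il33+ and 37.3 to 47.2 in Il33- WAT-MSC, and the leukocyte list to 13.8 to 32.7 in Il33+ and 43.8 to 96.0 in Il33-; the part of either in these differences was not tested.

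Of 12 other complement genes tested, 2 were higher and 1 was lower in Il33+ WAT-MSC, and 9 did not pass. Of all genes tested, 1.57% passed. C7, which inserts the nascent membrane attack complex into lipid, was at 359.9, 143 and 291 RPKM in Il33+ cells against a mean of 33.0 ± 5.67 in Il33- cells (SD, n = 3; log2 fold change 2.88, adjusted p = 0.00194, limma). Cd55 was at 109, 181 and 111 RPKM against a mean of 31.4 ± 6.22 (SD, n = 3; log2 fold change 2.04, adjusted p = 0.00435, limma). Vtn, vitronectin, went the other way, at 3.01 ± 0.73 against 14.5, 24.4 and 20.7 RPKM (SD, n = 3; log2 fold change -2.36, adjusted p = 0.0037, limma). The libraries of these 3 genes did not overlap, and neither did those of C2, Clu and C1qbp, which did not pass. In all, 4 of the 12 lay higher and 2 lower without overlap, where 17.5% of all genes did not overlap in either direction. C1s1 was at 267 ± 18.4 and 266 ± 39.9 RPKM (SD, n = 3), with a log2 fold change of 0.01 and a 95% interval of -0.48 to 0.50, and Colec12, a membrane collectin, had a log2 fold change of 0.10 (adjusted p = 0.937, limma). Without the filter on low levels, C7 and Cd55 missed the threshold (adjusted p = 0.0567 and 0.0579, limma).

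The comparison of Il33+ WAT-MSC with endothelial cells sets stroma against vessel cells of the same tissue. Of the 5 members, 0 passed by limma, where 3.90% of the 8665 genes tested did, and C1ra and Serping1, 2 of 5, had an unadjusted p under 0.05. The log2 fold changes of the stroma over endothelium were 1.36 for Serping1 (SE 0.34, adjusted p = 0.0752), 1.31 for C4b (SE 0.62, adjusted p = 0.364), 1.30 for C1ra (SE 0.49, adjusted p = 0.242), 0.91 for C3 (SE 0.49, adjusted p = 0.427) and 0.41 for Cfb (SE 0.47, adjusted p = 0.731), by limma. Only for Serping1, 1 of 5, did the libraries not overlap, where 23.2% of all genes did not overlap in either direction. The median of the members was 1.30 and that of all genes 0.18, which median-ratio scaling brought to 0.02. Serping1 passed with the replicate block (adjusted p = 0.0466), with median-ratio scaling (0.0273) and in the fit of all 15 libraries (0.00412), by limma.

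The endothelial libraries differed greatly among themselves, and every member was lowest in replicate 1 and highest in replicate 3. Relative to its mean in Il33+ WAT-MSC, C3 was at 23.5, 70.8 and 89.9% in replicates 1, 2 and 3, C4b at 9.52, 50.9 and 89.4%, and C1ra at 18.4, 35.0 and 91.5%. Cfb was at 36.6, 70.5 and 136%, and Serping1 at 29.1, 35.0 and 58.1%. The medians of the 15 stromal markers, expressed in the same way, were 30.5, 37.4 and 66.5%, with ranges of 14.8 to 65.1%, 20.9 to 84.2% and 44.6 to 129%. The members lay within the range of the stromal markers in each library, except C4b in replicate 1, below it, and Cfb in replicate 3, above it. The endothelial marker sums were 860.0, 719 and 730.4 RPKM in the same libraries. Mesothelial markers, 9 of 10 with a value, summed to 51.1, 234 and 227 RPKM in them. The part of stromal or mesothelial RNA in the members' levels was not tested. Without replicate 3, Serping1 (log2 fold change 1.64, adjusted p = 0.0205) and C1ra (1.89, adjusted p = 0.0258) were higher in Il33+ WAT-MSC by limma, and without replicate 1 the sign of Cfb turned (log2 fold change -0.037). Within lane 1 the differences of the members were 0.60 to 1.83, and within lane 2, which held replicate 3 and no other library of these populations, 0.04 to 0.85.

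**Figure D3:**
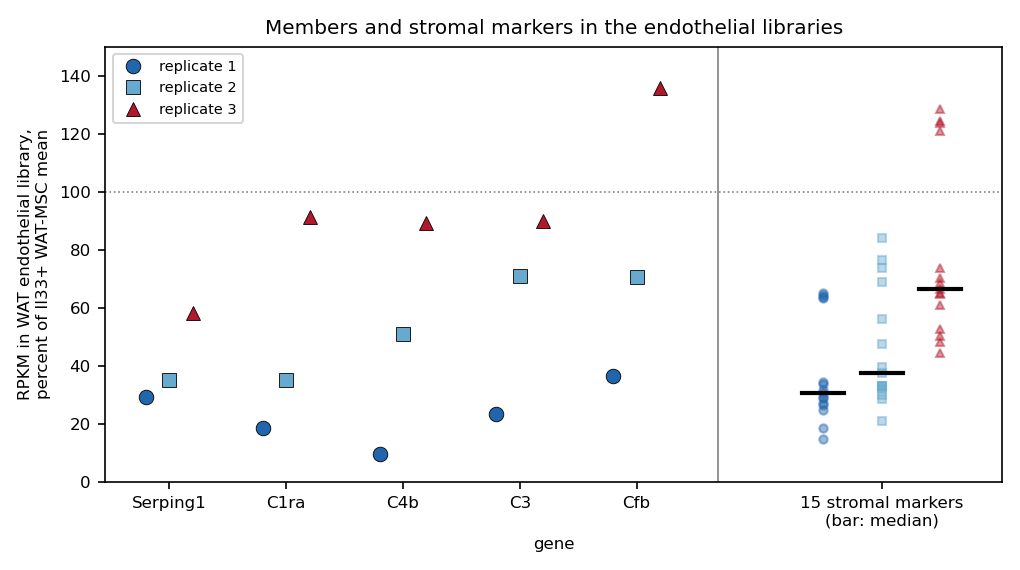
RPKM of the 5 members and of 15 stromal markers in each WAT endothelial library, as a percent of the mean in the 3 Il33+ WAT-MSC libraries; circles, squares and triangles stand for replicates 1, 2 and 3, bars for the median over the stromal markers, and the dotted line for 100%. Every member is highest in replicate 3, with Cfb at 136%, and the median over the stromal markers is also highest there, at 66.5%.

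Of the 13 other complement genes that were tested against endothelium and reached 1 RPKM in a library of both populations, 1 passed, lower in Il33+ WAT-MSC. Of all genes tested, 3.90% passed. Clu, clusterin, which binds the terminal complex in solution, was at 111, 59.7 and 75.9 RPKM in endothelial cells and 16.3, 28.2 and 24.1 in Il33+ WAT-MSC (log2 fold change -1.79, adjusted p = 0.0188, limma). Cfd, factor D or adipsin, the protease that activates factor B, was at 2.26, 7.42 and 5.55 RPKM in endothelial cells and listed at 0 in the 3 Il33+ WAT-MSC libraries. It met the filter on low levels only through the endothelial libraries, which fixed its direction, and no test is given for it. The Clu call was lost without any 1 of the Il33+ WAT-MSC libraries (adjusted p = 0.0521 to 0.103, limma) and without endothelial replicate 2 (0.0655). Cfd is abundant in fat cells, and the 4 adipocyte markers with a value, of 10 listed, summed to 266 to 493 RPKM in endothelial cells and 112 to 193 in Il33+ WAT-MSC. The higher endothelial sum came from Fabp4, at a mean of 267 RPKM against 6.76 in Il33+ WAT-MSC. Lpl went the other way, at 70.8 against 154 RPKM. Acsl1 and Lipe had endothelial means of 1.69 and 6.08 RPKM, against 1.13 and 0.38. The listed markers without a value were Adipoq, Plin1, Cidec, Lep, Retn and Pck1, so the sum says nothing of them. The part of fat cell RNA in the Cfd level was not tested.

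In lung, all 5 members were higher in Il33+ MSC than in epithelial cells, where 43.0% of the 9352 genes tested passed and 24.4% were higher in MSC. The log2 fold changes were 5.50 for C4b (SE 0.40), 5.20 for Serping1 (SE 0.23), 4.96 for C1ra (SE 0.29), 4.49 for C3 (SE 0.22) and 4.48 for Cfb (SE 0.27), with adjusted p values of 7.01e-07 to 5.45e-06 by limma. The libraries did not overlap in any of the 5 members, where 53.4% of all genes did not overlap in either direction. The median was 4.96 for the members and 0.13 for all genes, which median-ratio scaling brought to -0.06. All 5 calls held in every alternative, and the differences were 3.86 to 6.38 within lane 1 and 4.34 to 5.39 within lane 2. In the epithelial libraries the members stood at 0.694 to 5.23% of their lung Il33+ MSC mean, and the medians of the stromal markers at 2.12, 2.05 and 2.98%.

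Of 15 other complement genes that were tested in lung and reached 1 RPKM in a library of both populations, 6 were higher in MSC and 2 in epithelial cells, where 24.4% and 18.5% of all genes tested were. C1s1 was at 308 ± 38.2 against 8.72 ± 3.48 RPKM (SD, n = 3; log2 fold change 5.04, adjusted p = 1.19e-06, limma), and C7, C2 and Colec12 were higher in MSC by log2 fold changes of 4.97, 4.36 and 3.71. Cr1l, a membrane regulator also called Crry, and C1rl were higher by 1.03 and 1.02 on the log2 scale. The C1rl call was lost under 5 of 14 alternatives, which were the fit of all 15 libraries and the omission of lung Il33+ MSC replicate 1 or 3 or of epithelial replicate 1 or 2, with adjusted p values of up to 0.138 by limma. Hc, which encodes C5, was at 19.05, 25.5 and 34.4 RPKM in epithelial cells against 2.27, 0.47 and 0.46 in lung Il33+ MSC (log2 fold change -3.80, adjusted p = 3.46e-05, limma). Cd55 was also higher there, at 73.5, 99.3 and 89.9 RPKM against 50.2, 30.3 and 43.0 in MSC (log2 fold change -1.09, adjusted p = 0.00503, limma). C6, another terminal component, was at 2.44, 3.82 and 8.73 RPKM in epithelial cells and 0.64, 0.02 and 0.09 in lung Il33+ MSC, and since it met the filter only through the epithelial libraries no test is given.

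The other 6 pairs of populations completed the order. Against epithelial cells, 5 of 5 members were higher in Il33+ WAT-MSC (where 23.0% of all genes were), 3 of 5, Serping1, C1ra and C3, in Il33- WAT-MSC (23.5%), and 4 of 5, all but C4b, in endothelial cells (14.9%). The split of all genes depended on scaling, with 2128 higher and 1672 lower in Il33+ WAT-MSC than in epithelial cells as fitted and 1706 and 2105 under median-ratio scaling, and with 2181 and 1730 against 1818 and 2254 for Il33- WAT-MSC. Against lung Il33+ MSC, all members but C3 were lower in Il33- WAT-MSC (4 of 5, where 5.53% of all genes were) and in endothelial cells (4 of 5, where 3.00% were). Under median-ratio scaling C3 also passed in both, lower than in lung, and against endothelium it did so in the fit of all 15 libraries. Under quantile normalization its log2 fold change in Il33- WAT-MSC over lung Il33+ MSC was 0.14. In the comparison with endothelium the calls of Serping1, C1ra and Cfb were lost without any 1 of the lung Il33+ MSC libraries or without endothelial replicate 2 (adjusted p = 0.0546 to 0.153, limma), which left C4b. The C1ra call was lost there also with the pseudocount of 0.1 and with the filter dropped. In Il33- WAT-MSC over lung Il33+ MSC, it was lost in the fit of all 15 libraries (adjusted p = 0.0754, limma). In Il33- WAT-MSC over endothelium 0 of 5 passed by limma, where 5.69% of genes did, and 1 had an unadjusted p under 0.05. With the replicate number as a block, Cfb passed there, lower in Il33- WAT-MSC (adjusted p = 0.0372, limma), and C4b passed in Il33- WAT-MSC over epithelial cells (adjusted p = 0.00582, limma). Without Il33- WAT-MSC replicate 1, C4b and Cfb also passed against epithelial cells (adjusted p = 0.0208 and 0.00829, limma), C4b did so without epithelial replicate 3 (0.0351), and C4b passed in endothelial over epithelial cells without endothelial replicate 1 (0.0346). These pairs share libraries with each other and with the comparisons above.

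Ratios between members within a library do not depend on how the library was scaled. C3 exceeded C4b by 6.54 to 7.12 times in lung Il33+ MSC, against 44.1 to 52.7 times in Il33+ WAT-MSC, 64.5 to 144 in Il33- WAT-MSC and 48.4 to 119 in endothelial cells. C3 exceeded Cfb by 12.98 to 16.6 times in lung Il33+ MSC, 27.3 to 45.8 in Il33+ WAT-MSC, and 79.3 to 180 in Il33- WAT-MSC. The proportions of the 3 MSC populations did not overlap in either ratio. How often ratios of other genes stay apart was not computed. The endothelial range of C3 over C4b overlapped those of both WAT-MSC populations, and the epithelial range was 8.73 to 35.0. C3 over Cfb was 22.1 to 34.6 in endothelial and 10.2 to 36.1 in epithelial cells. Both of these ranges overlapped that of Il33+ WAT-MSC, and the epithelial range also that of lung Il33+ MSC. The level of C1 inhibitor transcript over that of its target proteases, Serping1 over the sum of C1ra and C1s1, was 4.45 to 5.82 in lung Il33+ MSC, 3.94 to 4.32 in Il33+ WAT-MSC and 2.28 to 2.65 in Il33- WAT-MSC. It was 2.78 to 3.98 in endothelial cells, overlapping Il33+ WAT-MSC. In epithelial cells it was 3.27 to 9.16, which took in the ranges of both Il33+ MSC populations. C1s1 exceeded C1ra by 2.85 to 3.31 times in lung Il33+ MSC, 4.69 to 5.41 in Il33+ WAT-MSC and 5.80 to 7.56 in Il33- WAT-MSC. The endothelial range of C1s1 over C1ra, 3.48 to 12.8, took in those of both WAT-MSC populations. The epithelial range, 3.199 to 4.58, overlapped that of lung Il33+ MSC. With 3 against 3 libraries an exact permutation test cannot give a p below 0.1, so these ratios are given without a test.

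**Figure D4:**
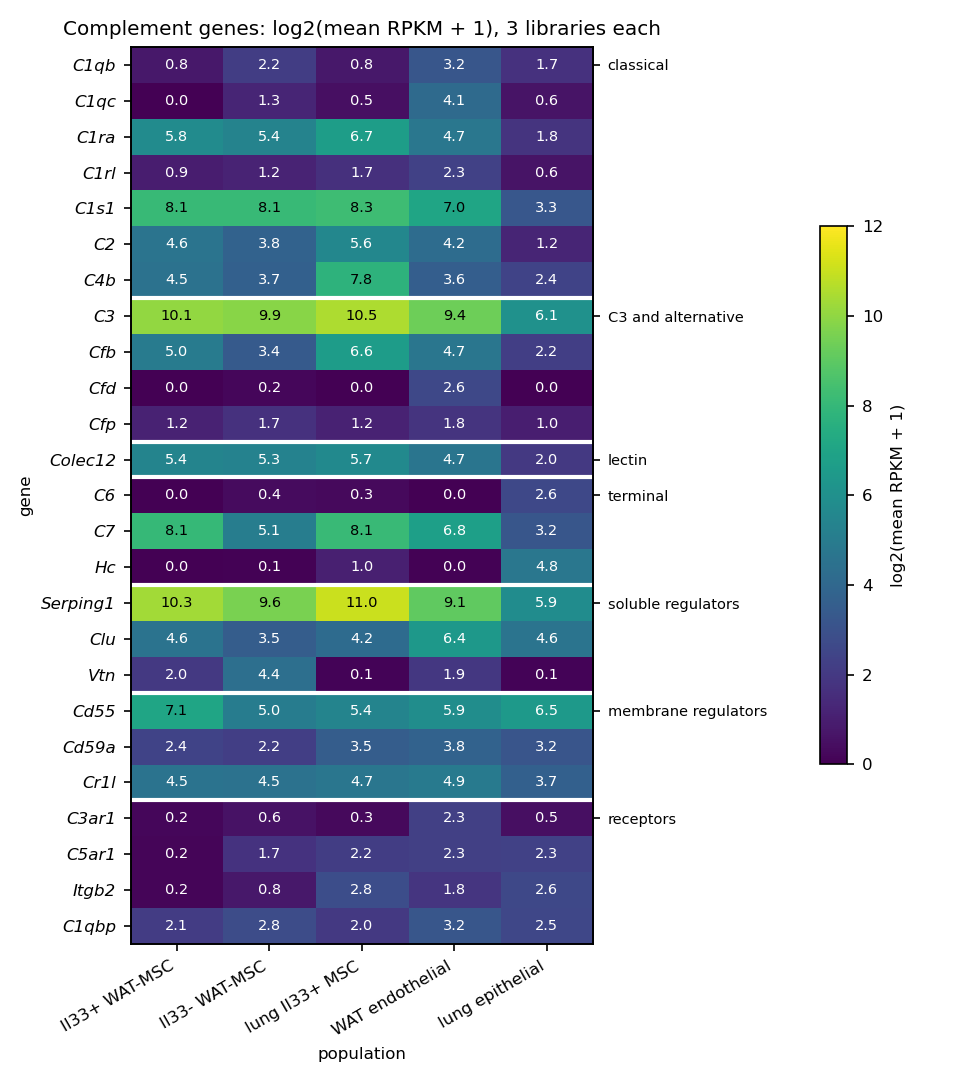
Log2(mean RPKM + 1) of the 5 members and the 20 other complement genes with a value in 5 populations (mean of 3 libraries each), grouped by role. The brightest cells are C3 and Serping1 in the MSC populations, while Hc, C6, Cfd and the receptors are dark in the stroma.

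Over the whole list, Serping1, C3, C1s1, C1ra, C7, Cd55, Colec12, Cr1l, C2, C4b and Clu had means of at least 10 RPKM in each MSC population. The lowest of these were 10.6 RPKM for Clu, 11.8 for C4b and 12.69 for C2, all in Il33- WAT-MSC. Cfb fell below that level there, at a mean of 9.38 RPKM. C1rl, a relative of C1r, had means of 0.92 to 2.17 RPKM in MSC. Of the 3 terminal genes with a value, of 7 listed, C7 was the only one at such a level, with a mean of 265 RPKM in Il33+ WAT-MSC and 275 in lung Il33+ MSC. Hc stayed at or below 0.08 RPKM in the WAT-MSC libraries. Of the 4 receptor genes with a value, no mean of C3ar1, C5ar1 or Itgb2 exceeded 6.15 RPKM in any population, and C1qbp, which encodes a C1q-binding protein, had means of 3.04 to 8.12 RPKM. Of the 9 lectin pathway genes listed, Colec12 was the only one with a value, at means of 39.3 to 50.4 RPKM in MSC.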

How the data were processed

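RNA of 15 sorted-cell libraries, 3 in each of 5 populations, was measured, and groups were taken from the sample labels. The authors amplified and sequenced the RNA, aligned it to mm10 with TopHat2 and used Partek, as their processing notes name them, and deposited RPKM values for 12698 transcripts; the filter behind that list is not given in the sources used here. RPKM was summed per symbol. Whole reads could not be recovered from the values, so no counting interval is given.

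Each pair of populations was compared by limma 3.58.1 (eBayes with trend; R 4.3.3) on log2(RPKM + 1). A gene entered if 3 or more of the 6 libraries reached 1 RPKM, Benjamini-Hochberg adjustment ran over all genes tested, and the threshold was 0.05. The labels number replicates as separate samples, and p-values measure the spread between them. The fit was tested on simulated data. Python 3.11.15 with numpy 2.4.6 and pandas 2.3.3 was used for other steps and matplotlib 3.10.9 for figures. Motifs were searched in RefSeq promoter windows of GRCm38.p6, and shared 50-base stretches in GENCODE transcripts of the same assembly.

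The members, the list of 50 other complement genes, the marker lists and the motifs were chosen with earlier results of these data known. Other complement genes were named if their mean reached 10 RPKM in any population or they passed the threshold in 1 of the 4 comparisons; a further item of the list is not reported here. For each member the 3 genes of highest correlation were named. As alternatives, models had a replicate block, a lane term or all 15 libraries, values were scaled by median ratios or quantile-normalized, the pseudocount was 0.1, the filter was dropped or raised to 5 RPKM, the most abundant transcript stood for its symbol, and each library was left out.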

Additional observations from a re-analysis of the deposited data

How the results depend on the processing

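Of 750 member values recomputed over the 10 pairs of populations, 700 kept their direction and their side of the threshold, 24 passed only under the alternative, 20 passed only in the fit as reported, and 6 changed sign. The cause was not tested for any of them. The sign changes were C3 in Il33+ over Il33- WAT-MSC under quantile normalization (log2 fold change -0.14) and without Il33- replicate 1 (-0.0025), C3 in Il33- WAT-MSC over lung Il33+ MSC under quantile normalization (0.14), Cfb in Il33+ WAT-MSC over endothelial cells without endothelial replicate 1 (-0.037), and C4b in Il33- WAT-MSC over endothelial cells without Il33- replicate 3 (-0.013) or endothelial replicate 1 (-0.50). Over all libraries left out in turn, these log2 fold changes ranged from -0.0025 to 0.34, from -0.037 to 0.87 and from -0.50 to 0.88.

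For Il33+ over Il33- WAT-MSC, the members passing went from 0 to 1 with the replicate block, lane or quantile normalization and 2 with median-ratio scaling, other complement genes from 3 to 1 with no filter, and all genes from 133 to 232 with the block and 20 with no filter. For Il33+ WAT-MSC over lung Il33+ MSC, a fit of all 15 libraries gave 1 member in place of 3 and 336 genes in place of 513, and 3 other complement genes in place of 5 passed in that fit and with the floor of 5 RPKM. For Il33+ WAT-MSC over endothelial cells, 1 member in place of 0 passed with the block, lane, all 15 libraries, median-ratio scaling or the floor of 5 RPKM. All 15 libraries gave 5 other complement genes in place of 2, and 805 genes in place of 338, and the floor of 5 RPKM gave 1 other complement gene. Of lung Il33+ MSC over epithelial cells, no count moved by more than 1.5 times.

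Leaving out 1 library at a time, in the order of these 4 comparisons, 0 to 0, 2 to 3, 0 to 2 and 5 to 5 members passed, 3 to 3, 2 to 4, 0 to 2 and 7 to 9 other complement genes, and 49 to 121, 191 to 447, 56 to 261 and 2835 to 3300 of all genes. Counts of other complement genes here include those that met the filter through 1 population only.

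Same-numbered libraries were to be taken as pairs only where their deviations correlated above 0.1 for every number, and no comparison met this. The mean correlations of deviations were 0.07, 0.01, 0.03 and 0.09 in these comparisons. Every library correlated best with its own number in the first and the last. The same held for endothelial cells compared with Il33- WAT-MSC, with lung Il33+ MSC and with epithelial cells. The block changed the call of 1 member in the first comparison, Cfb, and 1 in the comparison with endothelium, Serping1, and among the other pairs those of Cfb in Il33- WAT-MSC over endothelial cells and C4b in Il33- WAT-MSC over epithelial cells.

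Library depth was similar, but the reads behind each RPKM are unknown, so low values such as those of C4b and C1ra in epithelial cells have an error that only 3 libraries describe. Shared sequence leaves C1ra, C4b and Cfb uncertain.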

Other observations

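C1q chains, which start the classical pathway and are typical of macrophages, were highest in 1 endothelial library. C1qc was at 48.25 RPKM in endothelial replicate 2, at 0 and 1.48 RPKM in replicates 1 and 3 and at most 4.07 RPKM in the other populations. C1qb was at 22.7 RPKM there against 0.03 and 2.22, and was at 10.4 RPKM in Il33- WAT-MSC replicate 2 and 5.46 in lung epithelial replicate 2. C3ar1, the receptor for C3a, was at 10.9 RPKM there against 0.17 and 0.59. The leukocyte list summed to 474 RPKM in that library and to 293 and 260.4 in the others. Of these sums Cd74 alone held 263.5 RPKM in that library and 272 and 186 in the others. Except for Cd52, at 5.37 RPKM against 0.61 and 5.56, the rest of the list was highest in that library. Lyz2 was at 94.8 RPKM against 7.59 and 39.5, and Cd68 at 28.3 against 0.53 and 8.49. Laptm5 was at 19.96 RPKM against 0.01 and 5.02, and Csf1r at 16.05 against 0.64 and 2.77. C1qb and C3ar1 were chosen after their values were seen. Cd59a, which blocks the membrane pore, was at 8.03, 14.5 and 15.15 RPKM in the endothelial libraries and at 4.74, 1.34 and 6.92 in Il33+ WAT-MSC.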
